A study of Mus musculus with 9 samples.

Results

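The proteasome is the barrel-shaped protease that degrades proteins tagged with ubiquitin. Its core is a stack of rings, outer rings of α subunits that gate the entrance and inner rings of β subunits, some of which cut proteins, and the regulatory cap recognises the tagged protein, unfolds it with a ring of ATPases and feeds it into the core. In dendritic cells and other cells exposed to interferon, induced catalytic β subunits (the immunoproteasome) and the PA28 activator change the peptides that the core releases for presentation on MHC class I.

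The genes described here are those of the constitutive proteasome, its activators, its inhibitor and its assembly factors. They were taken by symbol, as all *Psma* to *Psmg* genes with a number, leaving out the induced catalytic genes *Psmb8*, *Psmb9* and *Psmb10*, which gave 45 of the 52550 genes in the table. The letter of the symbol set the group. There were 8 α genes (*Psma*), 8 β genes (*Psmb*), 6 cap ATPase genes (*Psmc*), 14 other cap genes (*Psmd*), 4 activator genes (*Psme*), 1 inhibitor gene (*Psmf1*) and 4 core assembly genes (*Psmg*).

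The study compared plasmacytoid dendritic cells (pDCs), the main producers of type I interferon, from mice that differ at *Ncf1*, which encodes a subunit of the NADPH oxidase. RNA-Seq was done on 9 samples, 3 each of G/G (wild-type), G/A (heterozygous knock-in) and A/A (homozygous knock-in) mice. The data below are from A/A replicate 1, and 8 libraries of the series were not analysed here. No value below therefore has a replicate error, and nothing is said of a difference between genotypes. The A/A mice were C57BL/6 animals aged 10 to 12 weeks, and their splenic pDCs were sorted and cultured for 12 hours with R848, a ligand of TLR7, at 10 μg/mL.

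The reads assigned to genes in this library came to 31408298, and 17664 genes had at least 1. The level of a gene is its share of these reads scaled to 1000000 (CPM), with Wilson 95% confidence intervals. The intervals cover counting error only, because 1 library was analysed. They may be too narrow even for that, because reads amplified by PCR and carrying no molecular identifier may repeat the same molecule. Genes were compared with each other as CPM per kilobase of exon, counting every base in an annotated exon of the gene once. For a gene listed at 0 the floor was 3 reads, or 0.0955 CPM, and the upper Wilson bound was 0.122 CPM.

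The study's methods describe female mice, but this library had reads from the Y chromosome. *Ddx3y*, *Eif2s3y*, *Kdm5d* and *Uty* had 234 CPM in all, led by *Ddx3y* at 102 CPM. *Xist*, the RNA of the inactive X chromosome, was listed at 0. The library labelled A/A replicate 1 thus went against the stated sex, and the proteasome values below all come from it.

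All 10 pDC markers had reads, with a summed level of 8577 CPM, led by *Irf8* at 2967 CPM. *Siglech*, a surface receptor of pDCs, had 374 CPM and *Bst2* had 1657. Of 7 markers of conventional dendritic cells, 6 had reads and *Cd209a* was listed at 0. Their summed level was 1958 CPM, most of it *Ccl22* at 1347 CPM and *Fscn1* at 428, while *Zbtb46* had 106, *Clec9a* 73.9, *Clec10a* 2.36 and *Xcr1* 1.72. All 4 macrophage markers had reads (85.3 CPM in all, led by *Csf1r* at 49.0). Of 4 neutrophil markers, *S100a8* led a sum of 24.3 CPM, and *Ly6g* and *Elane* were at 0. B cell markers summed to 8.06 CPM over 4 genes, led by *Cd79b*, with *Pax5* at 0. Erythroid markers summed to 2.83 CPM, all of it *Hba-a1*, with *Hbb-bs* at 0, and all 4 T cell markers were at 0. The share of the proteasome reads that came from cells other than pDCs was not tested.

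Proteasome genes were among the more abundant transcripts of the library. The 45 genes took 266277 reads, or 8478 CPM (95% CI, 8446 to 8510), which is 0.848% of the reads assigned to genes. Of these, 43 had reads and 2 were listed at 0. The 43 genes had a median of 177 CPM and a median percentile of 94.4 among genes with reads, from 53.8 for *Psmg2* to 99.2 for *Psme2*. Per kilobase of exon their median was 59.5 CPM, against 3.83 CPM for the 12201 protein-coding genes with reads, and 42 of the 45 lay above that value. The exceptions on that scale were the genes at 0, *Psma8* and *Psmb11*, and the activator gene *Psme4*. In CPM, 39 of the 45 lay above the protein-coding median of 17.8, and the assembly genes *Psmg1*, *Psmg2* and *Psmg3* were also below it. Per kilobase of coding sequence *Psme4*, *Psmg1*, *Psmg2* and the 2 genes at 0 were below the protein-coding median of 12.4 CPM.

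The medians of the groups fell into tiers, although single genes overlapped. Per kilobase of exon the 14 core genes with reads ran from 24.7 to 330 CPM. The 17 genes of cap subunits, the ATPase genes among them, ran from 21.3 to 119. Median levels were 107 CPM per kilobase of exon for the β genes with reads and 103 for the α genes. The ATPase genes had a median of 76.1 and the other cap genes 35.1. The inhibitor gene stood at 11.7 and the assembly genes at 6.29. Per kilobase of coding sequence the inhibitor gene instead stood above the median of the other cap genes, at 92.4 against 87.2. Per kilobase of the principal transcript it stood below that median, at 19.8 against 60.8. By median, the core thus ranked above both parts of the cap, and the assembly genes ranked last, also per kilobase of the principal transcript and of coding sequence. The order of the 2 core groups was not settled, since the α median was the higher with either of those lengths. For the activator genes the median of 123 CPM per kilobase of exon described no member, because a pair was high and a pair was low.

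**Figure D1:**
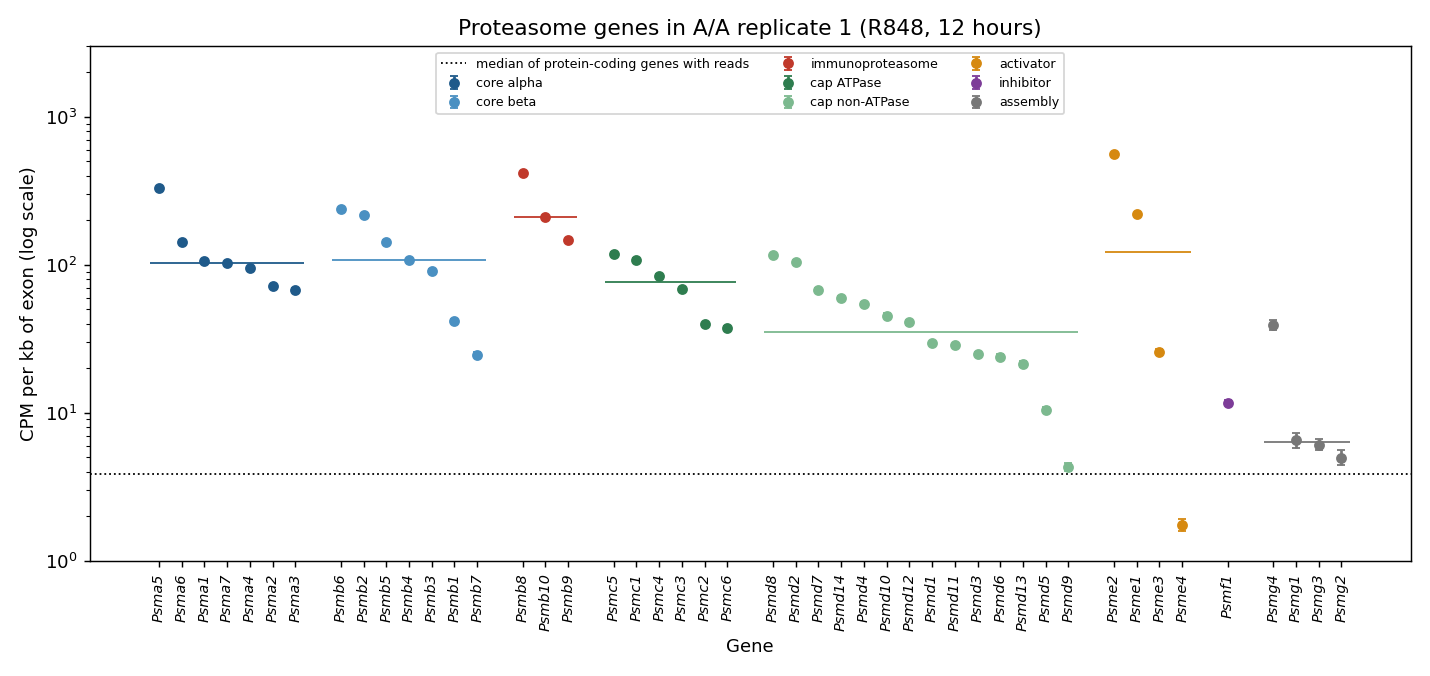
Levels of the 43 proteasome genes with reads and of the 3 induced catalytic genes in A/A replicate 1, as CPM per kilobase of exon on a log axis. Points are single genes with 95% counting intervals, solid lines are group medians, and the dotted line is the median of protein-coding genes with reads, 3.83. *Psme2* was the highest of the 45 genes and *Psme4* the lowest with reads.

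The α ring holds 7 different subunits, each present once, whose tails close the entrance of the core. All 7 genes had reads, from 5562 for *Psma6* to 13699 for *Psma5*. *Psma5* had 436 CPM (95% CI, 429 to 444), or 330 CPM per kilobase of exon, and was the highest of the ring with every length used, although per kilobase of the principal transcript its interval overlapped that of *Psma7*. *Psma3* was the lowest per kilobase of exon, with 8294 reads, 264 CPM (95% CI, 258 to 270) and 67.8 CPM per kilobase. The identity of the lowest gene depended on the length, as it was *Psma2* per kilobase of the principal transcript and *Psma6* per kilobase of coding sequence. *Psma6*, *Psma1*, *Psma7*, *Psma4* and *Psma2* lay between, at 144, 105, 103, 94.95 and 71.8 CPM per kilobase of exon, and the intervals of *Psma1* and *Psma7* overlapped. *Psma5* exceeded *Psma3* by 4.87-fold (95% CI, 4.74 to 5.00) per kilobase of exon. The highest gene exceeded the lowest by 2.51-fold per kilobase of coding sequence and by 2.46-fold in reads, with *Psma6* then the lowest. Among the 4 genes with at most 5% of their sequence shared or overlapped, which leaves out *Psma5* and *Psma3*, *Psma6* was the highest and *Psma2* the lowest per kilobase of exon, with a ratio of 1.9997. Of the 50-base windows in *Psma5* transcripts, 49.96% also occurred in another gene. For windows of 150 bases, the length of the study's reads, the share was 11.9%. The processed pseudogenes of *Psma5*, *Gm12989* and *Gm8394*, had 42 and 30 reads. How reads that match several genes were counted is not given in the sources used here. *Psma8*, which replaces an α subunit in the testis, was listed at 0.

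The β ring carries the cutting sites. *Psmb6*, the caspase-like subunit, had 14105 reads and 449 CPM (95% CI, 442 to 457), or 240 CPM per kilobase of exon. *Psmb5*, the chymotrypsin-like subunit, had 4057 reads and 129 CPM (95% CI, 125 to 133), or 144 per kilobase. *Psmb7*, the trypsin-like subunit, had 2652 reads and 84.4 CPM (95% CI, 81.3 to 87.7), or 24.7 per kilobase. The catalytic genes therefore included both ends of the ring, with *Psmb6* the highest and *Psmb7* the lowest of the 7 β genes with reads under each of the 3 lengths. Their ratio was 9.72 (95% CI, 9.32 to 10.1) per kilobase of exon, 6.19 per kilobase of coding sequence and 5.32 in reads. Without genes that share or have overlapped more than 5% of their sequence, *Psmb7* among them, *Psmb1* was the lowest of the 4 left and the ratio was 5.75. The structural genes *Psmb2*, *Psmb4*, *Psmb3* and *Psmb1* had 216, 107, 90.8 and 41.7 CPM per kilobase of exon. Of the 50-base windows in *Psmb5* transcripts, 54.1% also occurred in another gene, of which the pseudogene *Gm3375* had 68 reads. Of the 150-base windows, the length of the study's reads, 5.91% did. Exons of an opposite-strand gene, *Nek6*, which had 4576 reads, covered 11.8% of the exon bases of *Psmb7*. Use of strand in counting is not given in the sources used here. *Psmb11*, the β subunit of thymic epithelium, was listed at 0.

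Each induced catalytic subunit takes the place of a constitutive one when a new core is built. *Psmb8* had 44490 reads, or 1416 CPM (95% CI, 1403 to 1430), and 419 CPM per kilobase of exon. Of its exon bases, 14.7% lay under exons of an opposite-strand gene, *Gm20496*, which had 1387 reads. *Psmb8* exceeded *Psmb5*, whose place it takes, by 2.92-fold (95% CI, 2.82 to 3.01) per kilobase of exon. *Psmb10* had 11193 reads, or 356 CPM (95% CI, 350 to 363), and 209 CPM per kilobase, and exceeded *Psmb7* by 8.47-fold (95% CI, 8.12 to 8.84). Both ratios stayed above 1 with every length, but their size and their order did not hold. Per kilobase of coding sequence *Psmb8* exceeded *Psmb5* by 10.5-fold and *Psmb10* exceeded *Psmb7* by 4.28-fold, and per kilobase of the principal transcript the ratios were 6.06 and 3.73.

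The pair at the caspase-like site had no settled direction. *Psmb9* had 16839 reads, or 536 CPM (95% CI, 528 to 544), and 146 CPM per kilobase of exon, 0.611 times the level of *Psmb6* (95% CI, 0.597 to 0.624). Per kilobase of the principal transcript the ratio was 0.705. Per kilobase of coding sequence *Psmb9* was instead the higher, at 1.30 times *Psmb6*, and its reads were 1.19 times those of *Psmb6*. *Psmb6* was thus the constitutive catalytic gene with the most reads, and the one closest in level to its induced counterpart on the coding scale.

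**Figure D2:**
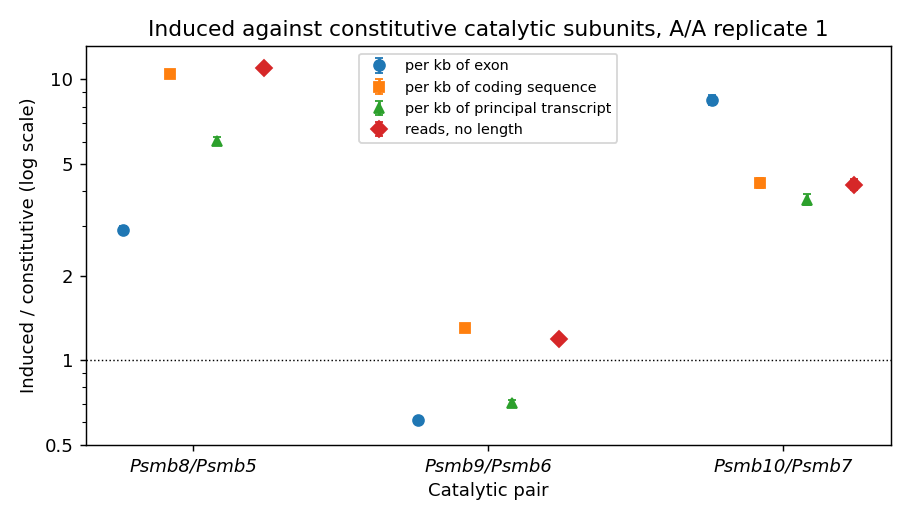
Ratio of each induced catalytic gene to the constitutive gene whose place it takes in A/A replicate 1, on a log axis. Symbols mark the length used, bars are 95% counting intervals, and the dotted line marks equal levels. *Psmb8* and *Psmb10* lie above the line on every scale, while *Psmb9* lies below it per kilobase of exon or principal transcript and above it on the others.

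The 6 ATPases form the ring that unfolds substrates. Their genes had the narrowest range in reads of the 3 rings compared, from 4109 for *Psmc6* to 6588 for *Psmc1*. *Psmc5* was the highest per kilobase of exon, with 5190 reads, 165 CPM (95% CI, 161 to 170) and 119 CPM per kilobase. *Psmc6* had 131 CPM (95% CI, 127 to 135) and 37.4 CPM per kilobase, and was the lowest with every length. The ratio of *Psmc5* to *Psmc6* was 3.17 (95% CI, 3.04 to 3.30) per kilobase of exon. Per kilobase of coding sequence the highest gene was *Psmc1*, and it exceeded *Psmc6* by 1.42-fold, and by 1.60-fold in reads. *Psmc1*, *Psmc4*, *Psmc3* and *Psmc2* had 109, 84.1, 68.1 and 39.7 CPM per kilobase of exon.

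The 14 *Psmd* genes encode the scaffold, ubiquitin receptor and lid of the cap, and chaperones that help to build it. *Psmd8*, a lid subunit, was the highest per kilobase, with 11109 reads, 354 CPM (95% CI, 347 to 360) and 116 CPM per kilobase of exon. The scaffold gene *Psmd2* followed at 105 and the scaffold gene *Psmd1* stood at 29.5. *Psmd14*, the lid enzyme that cuts ubiquitin chains off the substrate, had 59.5 CPM per kilobase of exon, its partner *Psmd7* had 67.7, and *Psmd4*, a ubiquitin receptor, had 54.6. The other lid genes, *Psmd12*, *Psmd11*, *Psmd3*, *Psmd6* and *Psmd13*, ran from 40.8 down to 21.3 CPM per kilobase of exon.

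*Psmd10*, *Psmd5* and *Psmd9* encode chaperones that leave the cap once it is assembled. *Psmd9* was the lowest of the 14, with 981 reads, 31.2 CPM (95% CI, 29.3 to 33.3) and 4.31 CPM per kilobase of exon. *Psmd5* had 10.5 CPM per kilobase of exon and *Psmd10* had 45.3. The 3 chaperone genes had a median of 10.5 CPM per kilobase of exon, against 40.8 for the 11 genes of cap subunits, a split made after the values were seen. Per kilobase of coding sequence these medians were 49.9 and 135, and the inhibitor gene *Psmf1*, at 92.4, lay between them. *Psmd9* and *Psmd5* stood below all 11 with each length, and *Psmd10* did not. Without a length correction *Psmd5*, at 75.6 CPM, was above the lid genes *Psmd13* and *Psmd6*, at 72.1 and 67.0. Exons of an opposite-strand gene, *Gm26745*, covered 25.5% of the exon bases of *Psmd9*, and that gene was listed at 0.

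Activators are alternative caps that open the core without ubiquitin or ATP. *Psme2*, which encodes the β subunit of PA28, had 30953 reads, or 986 CPM (95% CI, 975 to 997), and 559 CPM per kilobase of exon. *Psme1*, which encodes its α subunit, had 15213 reads, or 484 CPM (95% CI, 477 to 492), and 219 CPM per kilobase. These genes, whose products form 1 ring, had a ratio of 2.55 (95% CI, 2.50 to 2.60) per kilobase of exon. *Psme3*, the nuclear PA28 subunit, had 2392 reads, or 76.2 CPM (95% CI, 73.2 to 79.3), and 25.8 CPM per kilobase. *Psme4*, a large nuclear activator, had 456 reads, or 14.5 CPM (95% CI, 13.2 to 15.9), and 1.73 CPM per kilobase. The order *Psme2*, *Psme1*, *Psme3*, *Psme4* held with all 3 lengths and in reads, and per kilobase of exon no neighbours in it had overlapping intervals. *Psme1* exceeded *Psme3* by 8.49-fold (95% CI, 8.13 to 8.87) per kilobase of exon, and *Psme3* exceeded *Psme4* by 14.9-fold (95% CI, 13.5 to 16.5). The size of these steps depended on the scale. *Psme1* exceeded *Psme3* by 15.2-fold per kilobase of the principal transcript and by 6.36-fold in reads, and *Psme3* exceeded *Psme4* by 37.9-fold per kilobase of coding sequence and by 5.25-fold in reads. The intronless copy *Psme2b* had 2254 reads, 7.28% of those of *Psme2*. In *Psme2* transcripts, 28.3% of the 50-base windows and 12.1% of the 150-base windows, the length of the study's reads, occurred in another gene. Reads could thus have been split between the copies.

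*Psmf1* encodes an inhibitor of the isolated core that also takes part in proteasome transport. It had 2369 reads, or 75.4 CPM (95% CI, 72.4 to 78.5), and 11.7 CPM per kilobase of exon. The products of the *Psmg* genes act in pairs to build the α ring and are not part of the finished core. *Psmg4* had 680 reads, or 21.7 CPM (95% CI, 20.1 to 23.3), and 39.0 CPM per kilobase of exon. *Psmg3*, its partner, had 554 reads, or 17.6 CPM (95% CI, 16.2 to 19.2), and 6.10 per kilobase. The other pair had nearly equal reads, 274 for *Psmg1* (8.72 CPM; 95% CI, 7.75 to 9.82) and 271 for *Psmg2* (8.63 CPM; 95% CI, 7.66 to 9.72). *Psmg1* had 6.49 CPM per kilobase of exon and *Psmg2* had 4.96. *Psmg4* led the group with each length, while the order of *Psmg1*, *Psmg2* and *Psmg3* changed with it.

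Of 38 further genes that act with the proteasome, 37 had reads, and 31 lay above the median of protein-coding genes per kilobase of exon. Their median, over those with reads, was 12.6 CPM per kilobase of exon. Among the highest were *Ubb*, a polyubiquitin gene, at 1189 CPM per kilobase of exon, and *Tap2*, a subunit of the peptide transporter, at 202. The lowest with reads were *Thop1*, a peptidase of the cytosol, at 0.717, and the shuttle factor genes *Ubqln2* and *Ubqln4*, at 1.43 and 1.63. Proteasome components named outside the *Psm* scheme stood below the medians of the α and β genes per kilobase of exon. Not all did per kilobase of coding sequence, where *Pomp* had 469 CPM and *Sem1* had 471. That scale divides all reads of a gene by its coding bases, which were few in *Pomp* (426) and *Sem1* (213). Per kilobase of the principal transcript all stood below both medians (193 and 177), with *Pomp* at 127 and *Sem1* at 68.2. *Pomp*, which encodes the factor that matures the core, had 6280 reads and 38.3 CPM per kilobase of exon, the cap subunit gene *Sem1* had 28.4 and the ubiquitin receptor gene *Adrm1* had 25.9. *Nfe2l1*, a transcription factor that raises proteasome genes when proteasome activity falls, had 4032 reads, or 128 CPM (95% CI, 124 to 132), and 23.6 CPM per kilobase of exon. *Ddi1*, a homologue of the protease that activates it, was listed at 0, and *Ddi2* had 4.57 CPM per kilobase of exon.

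The 45 genes lay on 16 chromosomes, with 8 on chromosome 11. The PA28 genes *Psme1* (chr14:55578123-55581529, plus strand of GRCm38) and *Psme2* (chr14:55587441-55591113, minus strand) lay 5.91 kb apart, with 1 other gene with reads over that interval. *Psmb5* and *Psmb11* lay 7.31 kb apart on chromosome 14, and their levels were 129 CPM and 0.

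RefSeq promoters of GRCm38.p6, each 250 bases before to 50 bases after a gene's start, were given for 37 of the 45 genes. A gene with several promoters was counted once, as holding a motif if any of its promoters did. The antioxidant response element, which binds NRF1 (the product of *Nfe2l1*) and NRF2, was searched as TGACNNNGC on both strands, the motif that was planned. It occurred in promoters of 6 of the 37 genes, or 16.2%, against 14.0% of all 27025 genes, a share near the background. In the matched genes, levels ran from those of *Psmb6* to those of *Psme4*. The stretches that hold the matches are printed on the gene's strand with the matched letters in capitals, to show where they stand in the promoters of catalytic, cap and activator genes. They lie at chr14:54618018-54618058 (*Psmb5*, minus strand) and, on the plus strand, at chr11:70525332-70525372 (*Psmb6*), chr14:45329581-45329621 (*Psmc6*), chr11:107479278-107479305 (*Psmd12*), chr5:123228143-123228183 (*Psmd9*) and chr11:30771752-30771792 (*Psme4*). The RefSeq start of *Psmd9* lies 58.8 kb inside the gene as the deposited table places it, so its stretch stands before a start within that gene model. Among the genes without a printed stretch, starts also lay inside the gene model for *Psma6* (14.6 kb), *Psmd5* (4.01 kb), *Psmf1* (2.88 kb) and *Psmc2* (1.46 kb). *Psma6* and *Psmc2* each had a further start at or near the edge of the gene.
Psmb5: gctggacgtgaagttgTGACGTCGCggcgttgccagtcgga
Psmb6: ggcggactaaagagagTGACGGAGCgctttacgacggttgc
Psmc6: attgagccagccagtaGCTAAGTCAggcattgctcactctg
Psmd12: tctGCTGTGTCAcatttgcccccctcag
Psmd9: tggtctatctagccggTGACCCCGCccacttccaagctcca
Psme4: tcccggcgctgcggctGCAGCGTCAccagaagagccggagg

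In all, 8 motifs were searched, 7 of them chosen after the data were seen. Their counts are given whether or not they differ from the background. GGGCGG, the GC box, occurred in promoters of 22 of the 37 genes, or 59.5%, against 38.2% of all genes. A form of the interferon-stimulated response element, GAAA, any 2 bases and GAAA, occurred in 5 genes, against 3.99%. These were *Psmb3*, *Psmd4*, *Psmd9*, *Psme1* and *Psmg4*. CCAAT occurred in 13, against 41.1%, and TTCNNNGAA, which STAT factors bind, in 2, against 9.55%. TGACTCAGC, a narrower antioxidant form that TGACNNNGC also matches, and both NF-κB motifs, GGGAC followed directly by TTTCC and GGGGAA followed directly by TTTCCC, occurred in none, against 0.503%, 0.174% and 0.0259%. In the 150 bases before the start, the GC box occurred in 18 genes (31.3% of all genes) and the GAAA motif in 1 (1.85%). CCAAT occurred there in 9 (27.7%) and TTCNNNGAA in 0 (4.77%). All these backgrounds are shares of all genes. Whether the GC box or another motif differs in share from protein-coding genes with reads was not tested. A match is a description of letters, and a missing match says nothing of the factor. With 8 motifs read over the promoters of 37 genes, whether the share of any single motif exceeds chance was not tested. Genes were also counted whose promoters reached over 50% G and C and an observed to expected CpG ratio over 0.6. They numbered 27 of 37, or 73.0%, against 35.9% of all 27025 genes and 71.2% of 9471 protein-coding genes with reads.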

How the data were processed

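According to the submitters' processing notes, HISAT2, StringTie and the builds mm8 and mm10 were used, without their roles. For each gene the authors deposited 1 normalized signal value, whose unit is not stated. All values above 0 (100%, within 0.001 reads) were whole multiples of 1 step, so reads were recovered by division. Lengths came from GENCODE M21, matched for 99.7% of gene identifiers. The main length was all annotated exon bases, and coding length was the other length planned. The principal transcript length, the sum with *Psme2b*, 7 of the 8 motifs, the base composition of promoters and the split of cap chaperones were added after the data were seen. Intervals of ratios came from the exact binomial interval of the pair's share. Full values were planned for the highest and lowest gene of each group, catalytic pairs, activator, inhibitor and assembly genes and genes at 0, and, among the further genes, for the 3 highest and 3 lowest per kilobase, those at 0, *Nfe2l1*, *Pomp*, *Adrm1* and *Sem1*. Not every gene under this plan, nor every marker, is reported here. Other genes, among them *Ddi2* and the pseudogenes, were named after their values were seen. The members and lists were chosen with earlier results of these data known. The study's test between genotypes needs more than 1 library and was not run. Python 3.11.15, numpy 2.4.6, scipy 1.17.1, pandas 2.3.3 and matplotlib 3.10.9 were used, and recovery of reads was tested on simulated data.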

Additional observations from a re-analysis of the deposited data

How the results depend on the processing

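No paired analysis was possible because a single library was analysed and no result came from a test. Most values moved beyond counting error with the scale, and none has a replicate. The summed level of 8478 CPM became 9735 as a length-normalized share scaled to 1000000, 9393 without the 10 genes with the most reads, and 8550 with *Psme2b* (added after the data were seen). It moved by less than counting error with pseudogenes added. Leaving out *Psma8* and *Psmb11*, both at 0, could change no sum or median, since medians were taken over genes with reads. Per kilobase of coding sequence, median levels were 373 for activator, 29.3 for assembly, 138 for ATPase, 87.2 for other cap, 374 for α and 265 for β genes. Per kilobase of the principal transcript, a length added after the data were seen, they were 232, 14.2, 119, 60.8, 193 and 177. In CPM they were 280.3, 13.2, 179.8, 138, 264 and 209. The median percentile was 98.003 over all genes, 93.1 over genes with at least 10 reads and 95.02 per kilobase.

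The ratio of *Psmb8* to *Psmb5* was 10.97 in reads, 10.5 by coding and 6.06 by principal length. For *Psmb10* to *Psmb7* the values were 4.22, 4.28 and 3.73. For *Psmb9* to *Psmb6* they were 1.19, 1.30 and 0.705, of which the first pair turned the direction. The ratio of the highest to the lowest gene was 2.46 in reads, 2.51 by coding length and 3.89 by principal length in the α ring. In the β ring it was 5.32, 6.19 and 7.73, and in the ATPase ring 1.60, 1.42 and 2.25. Without genes that share sequence or are overlapped over more than 5%, it was 1.9997 in the α ring (4 genes left) and 5.75 in the β ring. These ratios differ between lengths by construction, since annotated exons that a cell may not use enter the exon length. Which length fits these cells was not tested. The motif share fell from 16.2% (exact 95% CI, 6.19 to 32.0) to 8.11% in the 150 bases before the start. That was 3 of 37 genes, and 7.74% of all genes had the motif there. A pseudocount of 0.1 moved the log2 level of 2 of 45 genes, those at 0, beyond counting error.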
